A study of Homo sapiens with 6 samples.

Results

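Imprinted genes are expressed from only the maternal or only the paternal copy, in some genes only in certain tissues. Of these genes, 42 were examined among the 46427 in the count table. They were found by gene symbol, from a list of known imprinted genes that was chosen from the results of this same comparison, so their differences between the lines are a description. Where a member is said to reach an adjusted p under 0.05, this only places it in the fit over all genes and supports nothing about the list. RNA was sequenced from Hs578T, a triple-negative breast cancer cell line of mesenchymal character, in 3 libraries of cells with control shRNA (shCTRL) and 3 libraries of cells with CCN3 shRNA #2 (shCCN3). Both lines were made by retroviral transfer of a pSUPER-retro-puro vector and selection of clones with puromycin, and CCN3 encodes a secreted matricellular protein. Each shRNA is represented by a single established line, so an effect of the knockdown and a difference that arose while the lines were established cannot be told apart. The series describes the libraries of a group as independent biological replicates, and the spread between them is that of samples within a line.

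An imprint is a mark of DNA methylation set in the egg or the sperm, which is kept through the divisions of the embryo and its tissues and which decides which parental copy of a gene is read. Many imprinted genes lie in clusters under a shared control region, and many act on growth, among them the growth factor gene IGF2 and its counterpart H19 at 11p15. Tumor cells can lose imprints, or silence the copy that is normally active, and a gene with a single active copy is then silent. The counts do not separate the parental copies, and DNA methylation was not measured here. In bulk libraries, fewer cells that express a gene and less RNA per cell cannot be told apart.

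4 members differed by 2-fold or more, namely FAM50B, NDN, H19 and MEG3. Their promoters are shown because a CpG-rich start is where such an on or off state is usually marked. Each is the RefSeq sequence on GRCh38.p14 from 250 bases before to 50 bases after a start, 5′ to 3′ on the gene's strand, as the RefSeq promoter table lists it, with each CpG dinucleotide in capitals. FAM50B is at chr6:3849123-3849422 on the plus strand, NDN at chr15:23687256-23687555 on the minus strand, MEG3 at chr14:100825858-100826157 on the plus strand (the first listed of 3 starts) and H19 at chr11:2001217-2001516 on the minus strand.
FAM50B: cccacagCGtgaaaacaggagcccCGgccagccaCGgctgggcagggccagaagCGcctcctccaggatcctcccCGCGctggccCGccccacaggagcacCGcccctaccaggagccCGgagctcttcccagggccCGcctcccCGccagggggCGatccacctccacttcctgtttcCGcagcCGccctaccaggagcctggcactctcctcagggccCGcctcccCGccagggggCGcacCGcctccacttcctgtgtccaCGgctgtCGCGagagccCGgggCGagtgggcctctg
NDN: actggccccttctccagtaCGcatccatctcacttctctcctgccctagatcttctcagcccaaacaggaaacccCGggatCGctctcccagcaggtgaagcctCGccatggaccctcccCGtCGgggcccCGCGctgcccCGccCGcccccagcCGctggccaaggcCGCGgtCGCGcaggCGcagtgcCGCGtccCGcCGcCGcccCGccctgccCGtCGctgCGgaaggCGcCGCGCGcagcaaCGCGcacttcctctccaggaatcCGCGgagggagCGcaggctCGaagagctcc
MEG3: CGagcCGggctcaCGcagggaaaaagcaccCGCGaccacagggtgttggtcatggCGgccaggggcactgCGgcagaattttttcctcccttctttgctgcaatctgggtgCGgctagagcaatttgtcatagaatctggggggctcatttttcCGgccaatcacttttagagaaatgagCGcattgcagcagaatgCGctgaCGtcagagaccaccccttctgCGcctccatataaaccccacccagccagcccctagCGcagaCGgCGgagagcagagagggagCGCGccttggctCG
H19: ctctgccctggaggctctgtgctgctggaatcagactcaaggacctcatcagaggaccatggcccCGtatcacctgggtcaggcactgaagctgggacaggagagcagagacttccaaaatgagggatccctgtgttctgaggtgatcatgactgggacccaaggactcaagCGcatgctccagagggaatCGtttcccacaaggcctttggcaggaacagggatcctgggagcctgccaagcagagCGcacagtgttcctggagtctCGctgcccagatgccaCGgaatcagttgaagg

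The listed FAM50B start lies 17.5 kb inside the span that RefSeq gives the gene, and the other starts lie at the outer end of theirs. These promoters differed in CpG content. The NDN promoter held 35 CpG, more than 85.9% of the 35116 RefSeq promoters of this length, the FAM50B promoter held 23 (more than 64.2%) and the MEG3 promoter held 19 (more than 57.1%). The median was 14 CpG over all promoters and 24 over the promoters of genes that passed the filter, so FAM50B and MEG3 lay below the latter. The H19 promoter held 6, more than 33.7% of promoters, and the methylated control region known for H19 lies upstream of this window. TGCCGC, the motif read by the imprint-maintaining zinc finger protein ZFP57 when it is methylated, was searched on both strands, with overlapping matches counted. It occurred in the NDN and MEG3 windows and not in those of FAM50B and H19. Of the 42 genes, 31 had at least 1 promoter that was used from the RefSeq table, with 67 promoters in all. Promoters on chromosome 8, where TRAPPC9 lies, were left out of this set but not of the comparison sets. Of the 67, 34.3% held the motif, beside 16.7% of all promoters. Among genes that passed the filter, the share was 38.5% for the members' promoters and 23% for all promoters. The motif occurred in at least 1 promoter of 15 of the 31 genes. Promoters of the same gene can overlap and are not independent. SNRPN and SNURF share an identical window with the motif, which is counted for both. The motif itself holds a CpG, and the median was 18 CpG over the 67 promoters, beside 14 over all promoters. Among genes that passed the filter, it was 21 for the members' promoters and 24 for all promoters.

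The libraries held 56159110 to 68393177 counts, and levels are given as CPM, read counts divided by library size and TMM factor. The detection limit of 3 counts was 0.0435 to 0.0540 CPM, depending on the library, and covers counting error only. CCN3 itself was 101 ± 2.43 CPM (SD, n = 3) in shCTRL and 47.0 ± 0.469 CPM (SD, n = 3) in shCCN3. The mesenchymal genes VIM, FN1, SPARC, ZEB1 and AXL were all expressed, at 50.7 to 7775 CPM in shCTRL, while the epithelial or luminal genes ESR1, CDH1 and EPCAM did not pass the filter on low counts. PGR and GATA3, of the same list, passed it at 2.86 ± 0.332 and 1.16 ± 0.0293 CPM in shCTRL and 3.80 ± 0.664 and 0.729 ± 0.206 CPM in shCCN3 (SD, n = 3 each).

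Of the 42 imprinted genes, 28 passed edgeR's filter on low counts and 14 did not. Among the 28, an adjusted p under 0.05 in edgeR's quasi-likelihood fit over all genes was reached by 14, of which 6 were higher and 8 lower in shCCN3. Over all 17419 genes tested the share was 33.4%, with 16.2% higher and 17.3% lower, and nothing is read from the members' share because the comparison itself chose them. The 4 members that also differed by at least 2-fold stand beside 8.1% of all genes. In 17 members the libraries of the groups did not overlap, which was so for 46.3% of all genes. The median log2 fold change (shCCN3 against shCTRL) of the 28 members was -0.07, and it was 0.01 over all genes tested. This median is the same with FAM50B set at the lower bound of its fold change. By the copy listed as active, an adjusted p under 0.05 was reached by 4 higher and 2 lower of 9 tested maternally expressed members. It was reached by 1 higher and 3 lower of 11 tested paternally expressed members. Of the 8 tested members listed under neither copy, 1 was higher and 3 were lower at that limit. Which copy was active in Hs578T was not measured.

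**Figure D1:**
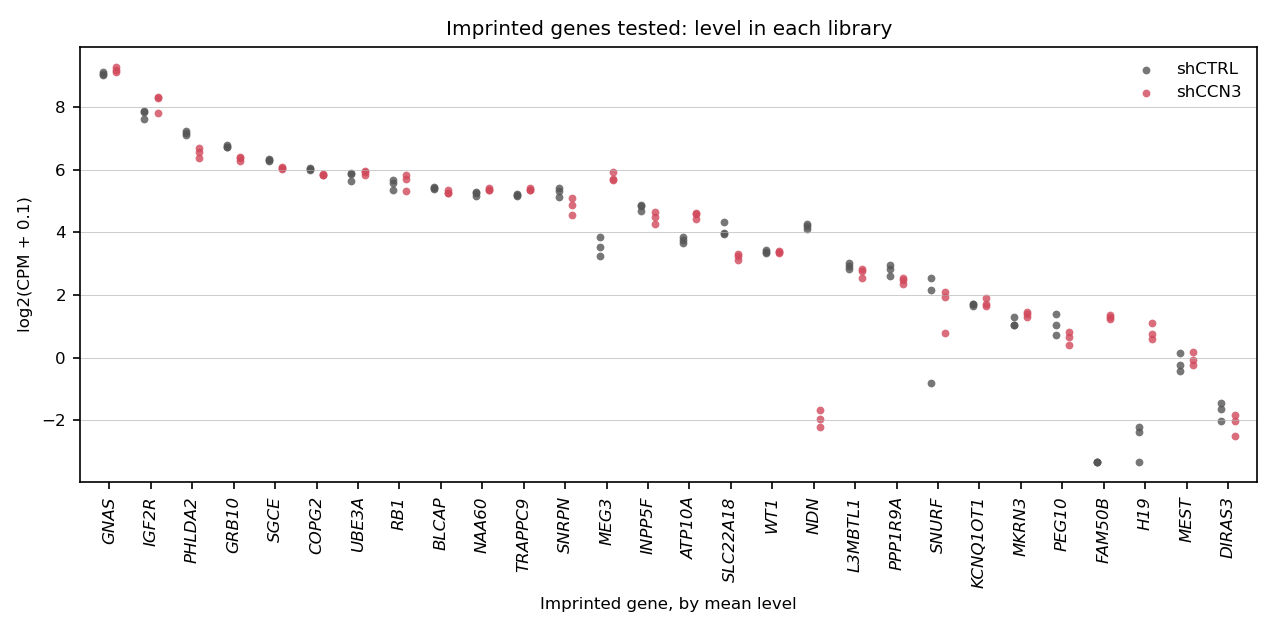
Level of each of the 28 imprinted genes that passed the filter, as log2(CPM + 0.1), in the 3 shCTRL (grey) and 3 shCCN3 (red) libraries, ordered by mean level. FAM50B, H19 and MEG3 sit higher and NDN sits lower in every shCCN3 library, and the other genes differed by under 2-fold in the fit.

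FAM50B was the only member silent in one line by the rule used, which asks for at most 3 counts in every library of a line while all libraries of the other line reach 1 CPM. It is a copy of the X-linked gene FAM50A that is expressed from the paternal chromosome, and it lies on chromosome 6 (GRCh38, 3831894 to 3851317). The shCTRL libraries held 0, 0 and 0 counts of FAM50B and the shCCN3 libraries held 163, 136 and 145, which is 2.36 ± 0.0903 CPM (SD, n = 3). Against the limit of 3 counts per library, FAM50B was at least 52.0-fold higher in shCCN3. Its parent gene FAM50A, looked up after its values were seen, was 119 ± 12.1 CPM in shCTRL and 109 ± 18.4 CPM in shCCN3 (SD, n = 3 each), with a log2 fold change of -0.13 (SE 0.12, adjusted p = 0.456 in edgeR's quasi-likelihood test). Over the whole table, 15 of the 13579 genes that reached 1 CPM throughout a line (0.11%) met the same rule, 8 of them expressed only in shCCN3. The members just outside the rule were H19, with up to 8 counts in a shCTRL library, and NDN, with 8 to 12 counts in the shCCN3 libraries.

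NDN encodes necdin, a growth-suppressing protein of the Prader-Willi region at 15q11-q13 that is expressed from the paternal copy, and it differed in the opposite direction. Its CPM was 18.5, 19.2 and 17.0 in the shCTRL libraries and 0.116, 0.216 and 0.156 in the shCCN3 libraries. All shCCN3 libraries were close to the counting limit, with 8, 12 and 10 counts against 1271, 1209 and 1142 in shCTRL. The log2 fold change was -6.82 (SE 0.17), and the ratio of the summed counts was 115 with a 95% exact counting interval of 80.1 to 170. This interval covers counting error only and leaves out the spread between libraries. NDN is a single-exon gene at chr15:23685400-23687305.

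The other members of 15q11-q13 that passed the filter did not share the loss of NDN. MKRN3, a paternally expressed ring-finger gene 120 kb from NDN (distances are between the lower coordinates of genes), was 2.095 ± 0.226 CPM in shCTRL and 2.49 ± 0.146 CPM in shCCN3 (SD, n = 3 each), with a log2 fold change of 0.25 (SE 0.15). MAGEL2, an intronless gene beside NDN, had 0 counts in all 6 libraries. SNRPN, which encodes a splicing protein and starts the long paternal transcript of the region, went from 39.0 ± 3.58 to 28.97 ± 5.44 CPM (SD, n = 3 each), with a log2 fold change of -0.43 (SE 0.13). These values show MKRN3 and SNRPN on either side of NDN at levels within 1.35-fold between the lines. SNURF, which shares its transcript with SNRPN so that reads between them are uncertain, had 299, 30 and 381 counts in shCTRL and 112, 230 and 237 in shCCN3, the widest spread within groups of all 28 members. Of the long paternal transcript, IPW, a gene named here after its values were seen, was 9.83 ± 0.639 CPM in shCTRL and 6.92 ± 0.668 CPM in shCCN3 (SD, n = 3 each), with a log2 fold change of -0.51 (SE 0.10, adjusted p = 0.00478 in edgeR's quasi-likelihood test). SNHG14, the host of this transcript, and PWAR6 had log2 fold changes of -0.45 (SE 0.17) and -0.31 (SE 0.32), with adjusted p = 0.0729 and 0.494 in the same edgeR test.

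The maternally expressed genes of the region stayed expressed in both lines. UBE3A, the ubiquitin ligase gene of Angelman syndrome which is imprinted in neurons, was 58.8, 57.9 and 49.96 CPM in shCTRL and 61.7, 56.4 and 60.8 CPM in shCCN3, and the groups overlapped. ATP10A, a phospholipid-transporting ATPase gene, was 12.5 to 14.2 CPM in shCTRL and 21.2 to 24.6 CPM in shCCN3, with a log2 fold change of 0.80 (SE 0.09). The groups of ATP10A did not overlap. Its 20 nearest tested genes had a median log2 fold change of 0.01, which became -0.37 with the 10 nearest. The 20 nearest tested genes around NDN, members left out, had a median log2 fold change of -0.02, which became -0.25 with the 10 nearest. PWAR6, IPW and SNHG14 of the long paternal transcript, and GABRG3, described further below, are part of the 10 nearest of both NDN and ATP10A.

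**Figure D2:**
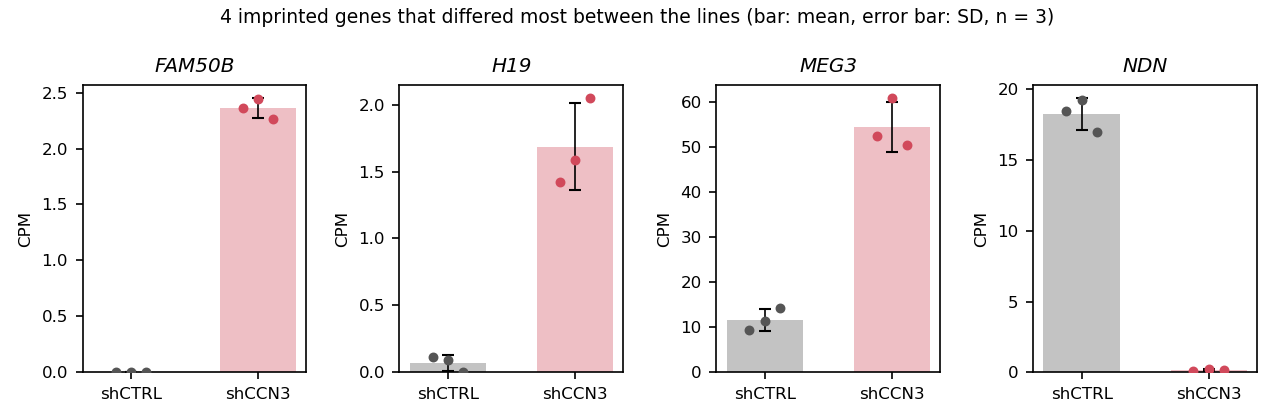
CPM of FAM50B, H19, MEG3 and NDN in each library (points), with the mean (bar) and SD (error bar, n = 3) of shCTRL and shCCN3, each panel on its own linear axis from 0. FAM50B is at 0 in all shCTRL libraries and NDN is under 0.25 CPM in all shCCN3 libraries.

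The long noncoding RNAs H19 and MEG3, both read from the maternal copy, were higher in shCCN3. H19 had 8, 6 and 0 counts in the shCTRL libraries and 98, 88 and 131 in the shCCN3 libraries, which is 0.0706 ± 0.0621 and 1.68 ± 0.325 CPM (SD, n = 3 each). The log2 fold change was 4.54 (SE 0.53), and the ratio of the summed counts was 23.9 with a 95% exact counting interval of 14.02 to 44.2. Here too the interval leaves out the spread between libraries. H19 would also count as silent in shCTRL if 10 counts per library were allowed. IGF2, the growth factor gene that shares its control region with H19 and is read from the paternal copy, had at most 10 counts in any library and did not pass the filter, so no fold is given. The 20 nearest tested genes around H19 had a median log2 fold change of -0.09.

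MEG3, at chr14:100826108-100861026, was 9.34, 11.4 and 14.2 CPM in the shCTRL libraries and 52.3, 60.7 and 50.3 CPM in the shCCN3 libraries. Every shCCN3 library was above every shCTRL library, and the log2 fold change was 2.22 (SE 0.14). MEG8 and MEG9, maternal noncoding RNAs further along the same domain that are no members of the list, lie 63.5 and 244 kb from MEG3. MEG8 went from 0.349 ± 0.0758 to 2.03 ± 0.0163 CPM (SD, n = 3 each), with a log2 fold change of 2.54 (SE 0.22, adjusted p = 3.04e-05 in edgeR's quasi-likelihood test). MEG9 went from 0.333 ± 0.114 to 2.34 ± 0.0499 CPM (SD, n = 3 each), with a log2 fold change of 2.81 (SE 0.25, adjusted p = 3.76e-05 in the same edgeR test). The maternal RNAs of 14q32 that passed the filter were thus all higher in shCCN3, by 4.67-fold to 6.99-fold. The paternally expressed genes of this domain were not detectable or close to it, as DLK1, which encodes a Notch-related growth regulator, had 0 counts in all libraries and RTL1, a retrotransposon-derived gene of the placenta, had at most 11. The 20 nearest tested genes around MEG3 had a median log2 fold change of -0.12, which turned to 0.15 with the 10 nearest, of which MEG8 and MEG9 are part.

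**Figure D3:**
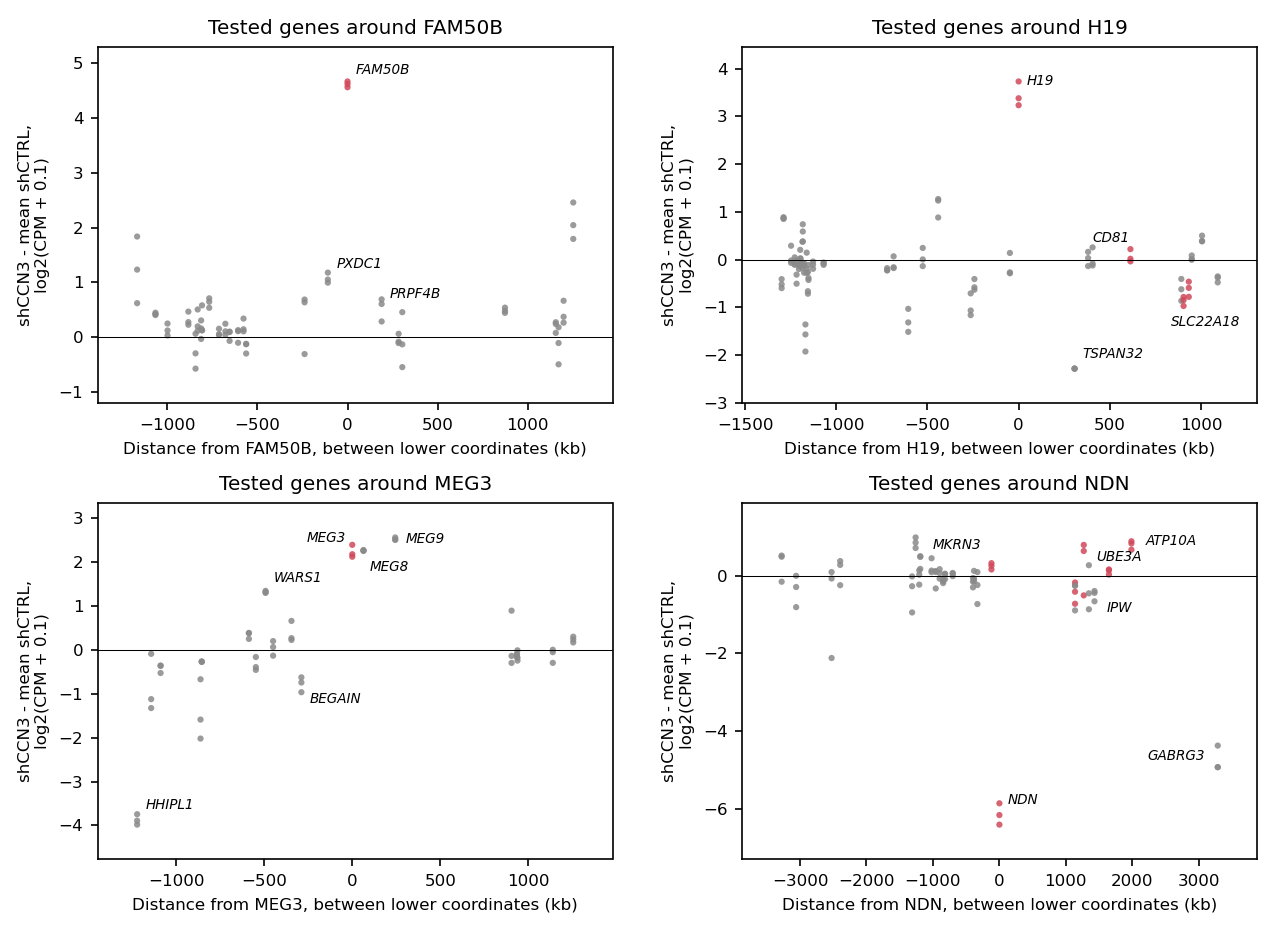
Tested genes around FAM50B, H19, MEG3 and NDN: for each gene, the level in each of the 3 shCCN3 libraries minus the mean of the shCTRL libraries, on the log2(CPM + 0.1) scale, against the distance between the lower coordinates of the genes in kb (imprinted genes of the list in red, other genes in grey). MEG3, MEG8 and MEG9 stand together above 2, while H19 and NDN stand apart from the other red genes in their panels. PXDC1, near FAM50B, lies near 1.

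In the part of 11p15 that is controlled through KCNQ1OT1 and restrains growth, PHLDA2 and SLC22A18 were lower in shCCN3. PHLDA2, a placental growth restrainer, was 137, 143 and 150 CPM in shCTRL and 94.9, 104 and 83.3 CPM in shCCN3, and the groups did not overlap. Its log2 fold change was -0.60 (SE 0.08). SLC22A18, a transporter gene beside it, was 15.2 to 19.9 CPM in shCTRL and 8.54 to 9.75 CPM in shCCN3, with a log2 fold change of -0.88 (SE 0.12). The long noncoding RNA KCNQ1OT1, read from the paternal copy, was 3.13 ± 0.106 and 3.29 ± 0.324 CPM (SD, n = 3 each), and its groups overlapped. CDKN1C, the cyclin-dependent kinase inhibitor gene p57 of the same domain, had at most 8 counts in any library. The 20 nearest tested genes of PHLDA2 and SLC22A18 had a median log2 fold change of -0.00.

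Among the other growth regulators, IGF2R encodes the receptor that clears IGF2 and carries lysosomal enzymes. IGF2R was 230, 231 and 194 CPM in shCTRL and 308, 224 and 318 CPM in shCCN3, with a log2 fold change of 0.38 (SE 0.13). The second shCCN3 library lay within the shCTRL range, and the median log2 fold change of its 20 nearest tested genes on chromosome 6 was 0.52. GRB10, an adaptor that restrains insulin receptor signaling, was 110, 105 and 105 CPM in shCTRL and 82.2, 76.8 and 83.6 CPM in shCCN3. The groups of GRB10 did not overlap, its log2 fold change was -0.40 (SE 0.06), and its 20 nearest tested genes on chromosome 7 had a median of -0.28, which became -0.04 with the 10 nearest. The tumor suppressor genes RB1 (46.4 ± 5.22 and 49.1 ± 8.59 CPM in shCTRL and shCCN3) and BLCAP (42.5 ± 0.703 and 38.8 ± 1.38 CPM), and DIRAS3, a RAS-related gene at 0.213 ± 0.0631 and 0.134 ± 0.0517 CPM (SD, n = 3 each), did not reach an adjusted p under 0.05.

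Genes of the membrane, of transport and of scaffolds changed by less than 2-fold. GNAS, which encodes the stimulatory G protein alpha subunit from a locus with several promoters that the counts do not separate, had the highest CPM of the list, with 526, 519 and 547 in shCTRL and 583, 621 and 558 in shCCN3. Its groups did not overlap, at a log2 fold change of 0.15 (SE 0.06) that did not reach an adjusted p under 0.05. SGCE, the epsilon-sarcoglycan gene of myoclonus-dystonia, was 77.3, 78.4 and 80.0 CPM in shCTRL and 67.4, 65.6 and 65.4 CPM in shCCN3, a log2 fold change of -0.25 (SE 0.05). COPG2, a coatomer subunit gene, was 66.4, 64.0 and 64.5 CPM in shCTRL and 56.5, 57.2 and 58.5 CPM in shCCN3, a log2 fold change of -0.18 (SE 0.06). SGCE and COPG2 were lower in every shCCN3 library, and both lie on chromosome 7, where the 20 nearest tested genes had medians of -0.43 and -0.37. Their own changes were smaller than those medians, and the median over the 821 tested genes of chromosome 7 was -0.43. TRAPPC9, a vesicle-tethering gene, was higher (log2 fold change 0.19, SE 0.06), and INPP5F, a phosphoinositide phosphatase gene, was lower (log2 fold change -0.32, SE 0.10). PPP1R9A (neurabin), NAA60 (an acetyltransferase of the Golgi), MEST (a hydrolase-like gene) and PEG10 (a retrotransposon-derived gene next to SGCE) had log2 fold changes of -0.35, 0.12, 0.13 and -0.47 without an adjusted p under 0.05.

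**Figure D4:**
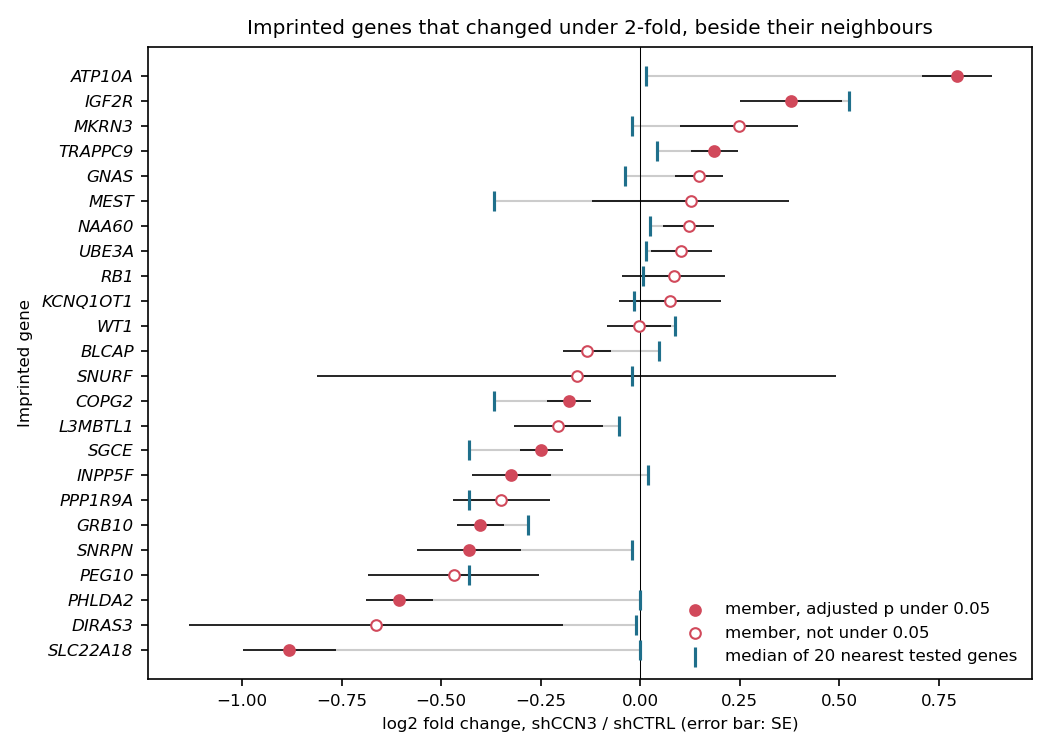
Log2 fold change (shCCN3 against shCTRL, error bar: SE) of the 24 tested imprinted genes that changed by less than 2-fold, filled where the adjusted p was under 0.05, beside the median of the 20 nearest tested genes (blue ticks). SLC22A18 and PHLDA2 lie below neighbours whose medians are near 0. The neighbours of the chromosome 7 genes have medians of -0.28 to -0.43, and MEST, SGCE, COPG2 and PPP1R9A lie above theirs.

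Transcription regulators were the group with the smallest share of members past the filter. Of 7, PLAGL1, KLF14, ZIM2 and ZNF597 had 0 counts in all libraries and PEG3 had at most 2. WT1, the Wilms tumor zinc finger gene, was 10.3 ± 0.372 and 10.3 ± 0.254 CPM, and L3MBTL1, a chromatin-compacting gene, was 7.49 ± 0.517 and 6.497 ± 0.697 CPM in shCTRL and shCCN3 (SD, n = 3 each). Among all members, the genes with 0 counts in every library were CALCR, DLK1, KLF14, MAGEL2, NNAT, PLAGL1, ZIM2 and ZNF597, each below the limit of 0.0540 CPM. CDKN1C, DDC, IGF2, NLRP2 and RTL1 had a few counts, at most 11 in any library, and stayed under the filter. At these depths their levels could not be compared between the lines.

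Levels were also scaled to the joint length of the exons of all transcripts of a gene in GENCODE release 29. On this scale PHLDA2 was the most abundant, at 150 CPM per kb in shCTRL and 98.5 in shCCN3. GNAS followed at 39.8 and 44.1 CPM per kb, and COPG2, IGF2R, SNRPN and GRB10 lay between 8.26 and 15.9 CPM per kb in both lines. NDN, at 9.45 CPM per kb in shCTRL, was of the same order as these genes there and at 0.0843 in shCCN3. FAM50B reached 0.915 CPM per kb in shCCN3, so its gain left it below most expressed members. MEG3 reached 2.345 CPM per kb in shCCN3. It was scaled by 23.2 kb of exons over all its transcripts, so its rank by this measure is uncertain. Within groups, the median SD of log2(CPM + 0.1) was 0.126 over the tested members and 0.114 over the 13633 tested genes with a mean of at least 1 CPM.

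A wider list of 68 imprinted genes that are no members held 66 in the table and 36 that passed the filter. Of these, 15 (41.7%) had an adjusted p under 0.05, 6 higher and 9 lower, beside the 33.4% of all genes. Nothing is read from this share, because this list too was chosen with earlier results of these data known. The called genes higher by 2-fold or more included MEG8, MEG9, CPA4 and PXDC1, and TFPI2 was lower by 2-fold or more. CPA4, a carboxypeptidase gene at 7q32 near MEST, rose from 17.1 ± 0.708 to 70.2 ± 2.23 CPM (SD, n = 3 each; log2 fold change 2.04, SE 0.07, adjusted p = 9.44e-08 in edgeR's quasi-likelihood test). PXDC1, 109 kb from FAM50B, rose from 17.6 ± 1.275 to 37.1 ± 2.45 CPM (SD, n = 3 each; log2 fold change 1.08, SE 0.08, adjusted p = 1.42e-05 in the same test). TFPI2, a protease inhibitor gene at 7q21, fell from 0.916 ± 0.0456 to 0.406 ± 0.117 CPM (SD, n = 3 each; adjusted p = 0.00903 in edgeR's quasi-likelihood test).

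Genes that set or keep imprints were compared last. Of 29, 21 passed the filter and 5 (23.8%) had an adjusted p under 0.05, none of them at 2-fold or more, beside 33.4% and 8.1% of all genes. This list was also chosen with earlier results known, so nothing is read from its share. ZFP57, which guards imprints in the embryo, fell from 10.4 ± 0.803 to 7.29 ± 0.394 CPM (SD, n = 3 each; log2 fold change -0.51, SE 0.10, adjusted p = 0.00304 in edgeR's quasi-likelihood test), and TLE6, a gene of the egg's cytoplasm, also fell. YY1, TET1 and KDM1B rose, with log2 fold changes of 0.34, 0.71 and 0.42, although the libraries of KDM1B overlapped between the groups. TET1 oxidizes methylated cytosine while KDM1B removes histone methylation. The maintenance methyltransferase gene DNMT1 was 241 ± 8.28 and 248 ± 28.6 CPM, and its partner UHRF1 138 ± 7.73 and 133 ± 10.9 CPM, in shCTRL and shCCN3 (SD, n = 3 each). Their log2 fold changes of 0.04 (SE 0.08) and -0.05 (SE 0.08) were smaller than their errors. TRIM28, the corepressor that ZFP57 recruits, CTCF, the insulator protein at the H19 control region, and ZNF445, the other imprint-guarding zinc finger gene, had log2 fold changes of -0.03 (SE 0.07), 0.11 (SE 0.10) and 0.16 (SE 0.08), none with an adjusted p under 0.05.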

How the data were processed

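RNA-seq was done on 3 shCCN3 and 3 shCTRL libraries of Hs578T cells, from a stranded poly(A) kit. The authors deposited raw read counts per gene, without normalization. The submitters' processing notes name bcl2fastq 2.20.0, Trimmomatic, HISAT2 2.1.0, StringTie 2.1.3d, DESeq2 and GRCh38. Whether counting used the strand is not given in the sources used here, so antisense and overlapping genes (SNURF with SNRPN, KCNQ1OT1 with its host, MEST with COPG2) are uncertain.

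The counts were analysed with edgeR 4.0.16 (R 4.3.3), using TMM factors for CPM, the filter on low counts by group, the quasi-likelihood test without a block and Benjamini-Hochberg adjustment over 17419 genes. SE is the log2 fold change over the root of F. Tests with 3 libraries against 3 rest on the spread pooled over genes. Within groups, the chi-square per degree of freedom between libraries was 6.75 to 42.5, above counting noise. The highest values, 34.7 and 42.5, both involved the second shCCN3 library. These values do not show what kind of replicate the libraries are, and each was treated as a replicate as the series describes it. Neighbours are the 10 nearest tested genes on each side, by RefSeq coordinates, to which 44698 Gene IDs matched.

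The members and all lists were chosen with earlier results of these data known. By the rule for named genes, values per library are given for members silent in one line, changed by at least 2-fold or at a mean of at least 50 CPM. Of the other lists, called genes with at least a 2-fold change are named, at most 5 per direction, besides DNMT1, UHRF1, TRIM28, CTCF, ZNF445 and ZFP57. The values of 1 gene that this rule names are not reported here. The scripts were tested on simulated data. Alternatives were other size factors, no filter, at least 10 counts in every library, DESeq2 1.42.0, limma-voom (limma 3.58.1), a replicate block, each library left out, other windows of neighbours and other limits for silence.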

Additional observations from a re-analysis of the deposited data

How the results depend on the processing

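The count of all genes called was 5825, and 4181 to 7229 with each library left out. The members called higher numbered 6 (4 to 6 with each library left out) and those called lower 8 (5 to 9), and the regulators called numbered 5 (3 to 9). The 4 members with at least a 2-fold change became 1, MEG3, when at least 10 counts in every library were required, since that filter removes FAM50B, H19 and NDN by construction. Genes silent in one line numbered 15, and 34 with up to 10 counts allowed, 9 with 0 counts required, 34 with at least 0.5 CPM in the other line and 15 to 20 with each library left out. FAM50B was among them each time.

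The replicate numbers did not pair the samples, as the correlations of the same-numbered libraries were 0.0891, -0.0256 and -0.0657. With the replicate block 4887 genes were called in place of 5825, and the members called were 4 higher and 6 lower. SNURF turned to 0.28 (limma-voom), 0.081 (replicate block) and between -0.67 and 0.37 with each library left out. KCNQ1OT1 lay between -0.009 and 0.13, RB1 between -0.026 and 0.22 and WT1 between -0.029 and 0.025 with each library left out. IGF2R, TRAPPC9, COPG2, SNRPN and INPP5F lost their call with several libraries left out, and the cause was not tested. Genes near 0 counts are limited by depth.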

Other observations

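Other low genes inside or beside imprinted domains were picked out after their values were seen. GABRG3, a GABA receptor subunit gene of 15q11-q13 3286 kb from NDN, had 211, 193 and 182 counts in the shCTRL libraries and 0, 0 and 3 in the shCCN3 libraries. The ratio of its summed counts was 185, with a 95% exact counting interval of 63.1 to 901 that leaves out the spread between libraries. TSPAN32, a tetraspanin gene of 11p15 307 kb from H19, had 18, 25 and 36 counts in shCTRL and 0 in every shCCN3 library, at least 8.28-fold lower against 3 counts per library. PPP1R3G, a glycogen-related phosphatase subunit gene 1253 kb from FAM50B, differed in the opposite direction, with 0 counts in every shCTRL library and 17, 25 and 20 in shCCN3, at least 7.41-fold higher on the same basis. HHIPL1, 1222 kb from MEG3 on chromosome 14, fell from 3.75 ± 0.104 to 0.164 ± 0.0221 CPM (SD, n = 3 each; log2 fold change -4.50, SE 0.19, adjusted p = 4.94e-07 in edgeR's quasi-likelihood test). Between HHIPL1 and MEG3, WARS1 rose from 117 ± 2.42 to 293 ± 4.71 CPM and BEGAIN fell from 6.76 ± 0.519 to 3.91 ± 0.469 CPM (SD, n = 3 each; adjusted p = 3.93e-07 for WARS1 and 0.0011 for BEGAIN in the same edgeR test).

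Of the genes beside the imprinted part of 15q11-q13, values were mixed. NIPA1 had a log2 fold change of 0.05 (SE 0.09) and CYFIP1 of -0.01 (SE 0.07), with adjusted p = 0.712 and 0.964 in edgeR's quasi-likelihood test. The pseudogenes GOLGA8EP and HERC2P2, on the same side, were called with log2 fold changes of 1.43 and 0.39, and their reads are uncertain because near-identical copies exist. Around FAM50B, 9 of 26 tested genes, FAM50B included, within 1.3 Mb were called, beside 33.4% of all genes tested. Of the 26, 21 had a log2 fold change above 0. Over chromosome 6 as a whole the median log2 fold change was 0.34 (891 tested genes), while over chromosome 7 it was -0.43 (821 tested genes).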
